A study of Mus musculus with 6 samples.

Results

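DNA replication and S-phase genes are described here in BV2, an immortalized cell line made from mouse microglia, which are the resident macrophages of the brain. The group held 47 gene symbols, chosen with earlier results of these data known, which license and fire replication origins, copy DNA, supply nucleotides, copy chromatin or drive the S-phase programme. All 47 were among the 46095 symbols of the count table, and all 47 were among the 14120 genes with enough counts to be tested. Untreated cells (CON group, 3 libraries) were compared with cells incubated with recombinant sTREM-1, the soluble form of the myeloid receptor TREM-1, at 1 μg/mL for 6 h (sTREM-1 group, 3 libraries). BV2 was the only cell line used, and the wells of each group were seeded in a six-well plate. The methods name more wells per group than there are libraries in the count table. The study speaks of separate experiments for a set of assays that includes this one, but no source ties a library to a separate culture. The p-values therefore measure the spread between these libraries, which may be technical.

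Before S phase, the origin recognition complex, Cdc6 and Cdt1 load the ring-shaped MCM helicase onto replication origins, and geminin (Gmnn) blocks further loading afterwards. Cdc45 and the GINS complex then turn MCM into the active helicase, primase and DNA polymerase alpha lay down primers, and polymerases delta and epsilon extend them with the PCNA sliding clamp. Many of these genes are transcribed at the boundary of G1 and S phase by E2F transcription factors, so their RNA is commonly used as a sign of cycling cells, and BV2 cells, as an immortalized line, divide in culture.

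Most of these genes had more RNA in the sTREM-1 group. Of the 47 genes, 36 rose, 1 fell (Orc1) and 10 did not pass the test, by edgeR's quasi-likelihood test with a Benjamini-Hochberg adjusted p under 0.05 over all genes tested. Thus 76.6% of the group was called higher, against 16.5% of all tested genes, and the 1 gene called lower stands against 14.1% of all tested genes. The changes were small. The median log2 fold change was 0.32 (1.24-fold), with quartiles of 0.15 and 0.40, against a median of -0.0017 and quartiles of -0.13 and 0.13 over all tested genes. With a change of at least 1.2-fold required as well, 25 of the 47 were called higher, against 5.92% of all tested genes. At 1.5-fold 1 gene of the 47, Tk1, was called higher, against 130 of the 14120 tested genes. The 3 sTREM-1 libraries all lay above the 3 CON libraries for 37 of the 47 genes, against 21.3% of all tested genes. Since bulk RNA was measured, a larger share of cells in S phase and more RNA per cell in S phase cannot be told apart.

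The rise was alike in the 3 treated libraries. Set against each gene's CON mean, the median log2 ratio of the 47 genes was 0.29, 0.29 and 0.30 in sTREM-1 replicates 1, 2 and 3, and -0.0038, -0.011 and 0.014 in the CON replicates. In sTREM-1 replicates 1, 2 and 3, 43, 39 and 41 of the genes lay above every CON library. The same held for 4900, 4907 and 4939 of all 14120 tested genes. Together the 47 genes took 0.279% to 0.284% of all counts in the CON libraries and 0.332% to 0.340% in the sTREM-1 libraries.

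**Figure D1:**
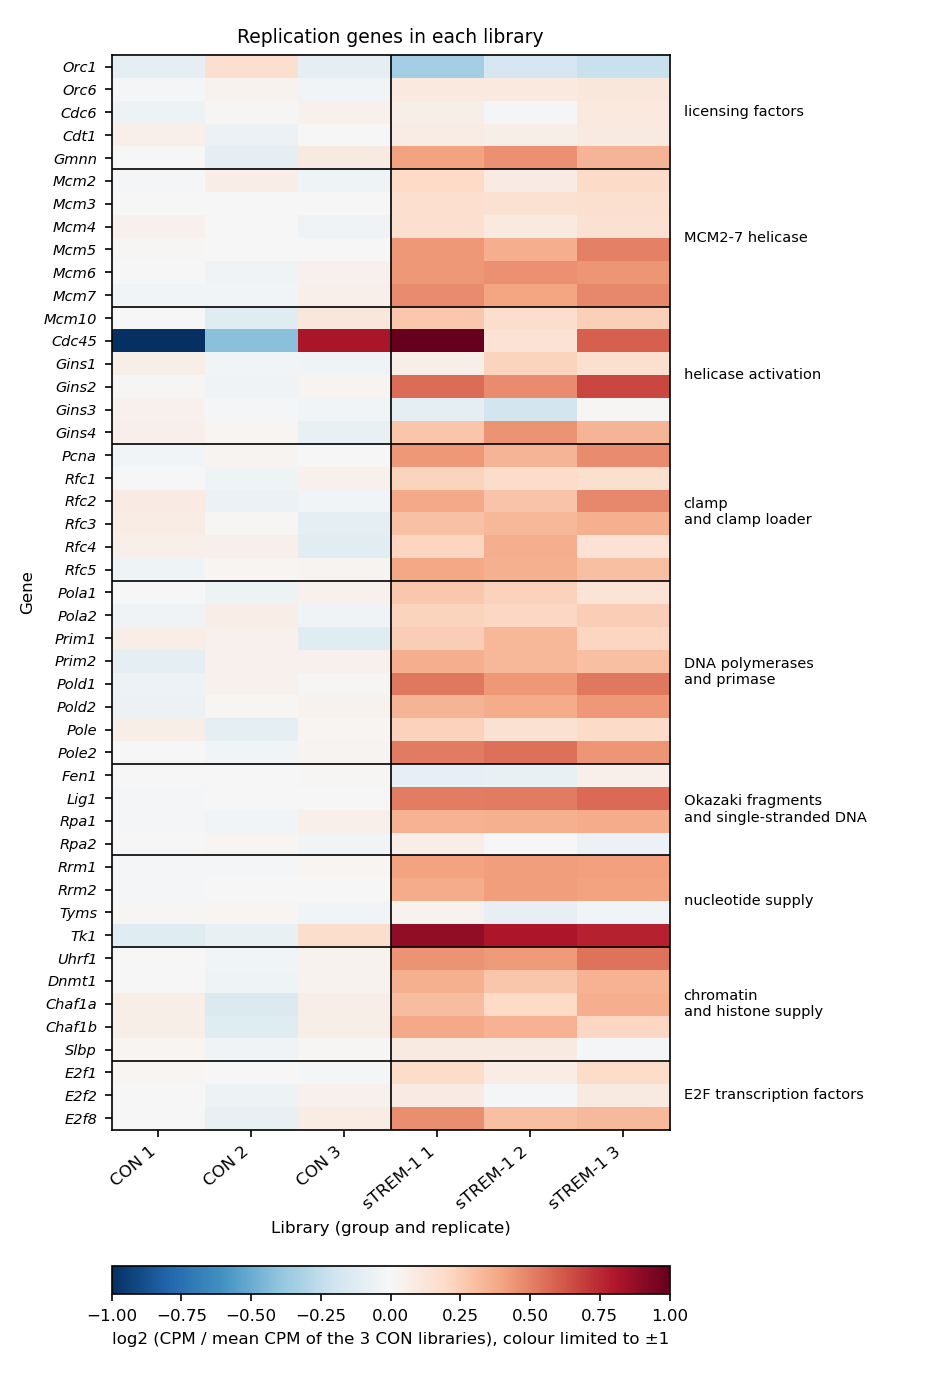
Heat map of the 47 genes (rows, ordered by role) in the 3 CON and 3 sTREM-1 libraries (columns), coloured by the log2 ratio of each library's CPM to the CON mean of that gene. The sTREM-1 columns are coloured as higher for most genes, with the median gene at 0.29 to 0.30. Orc1 is lower in all 3 of them, and Gins3, Fen1, Tyms and Rpa2 are lower in 2 of the 3.

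The libraries held 40070633 to 45877107 counts, with a biological coefficient of variation of 3.99%. Levels are given as CPM, the counts scaled to a common library total after TMM normalization. Of 13 microglia and macrophage markers, Aif1 and Sall1 had 0 counts in all 6 libraries and the other 11 were tested. Their summed level was 2645 to 2679 CPM in the CON and 2908 to 2981 CPM in the sTREM-1 libraries. Of the 11, 4 were called higher (36.4%, against 16.5% of all tested genes) and 7 were not called. Most of the rise in the sum lay in Csf1r, which went from 521 ± 3.13 to 753 ± 20.5 CPM. Cd68 (0.973-fold) and Tyrobp (0.974-fold) were not called. Cx3cr1, Tmem119 and P2ry12 had group means of only 0.668 to 1.77 CPM. The astrocyte markers summed to at most 0.479 CPM and the neuron markers to at most 0.328 CPM in any library. Of 4 oligodendrocyte markers, Mbp was at 2.17 to 3.34 CPM in the CON and 2.23 to 2.75 CPM in the sTREM-1 libraries, which overlap, and the other 3 had at most 8 counts in any library. The part of these shifts in the results on replication genes was not tested.

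The promoters of a few of these genes are shown first, to set genes that were called higher beside genes that were not, and were taken from RefSeq on GRCm38.p6. Each runs 5′ to 3′ on the strand of the gene from 250 bases before the transcription start to 50 bases after it. The capitals mark the words searched as E2F motifs, which were TTTCCCGC, TTTGGCGC, TTTCGCGC and TTTGCCGC on either strand, and overlapping words run together. Mcm3, Mcm5 and Mcm6 encode subunits of the helicase and were called higher, Orc1 was the gene called lower, and Gins3 did not pass the test.
Mcm6 promoter (chr1:128359656-128359955, minus strand): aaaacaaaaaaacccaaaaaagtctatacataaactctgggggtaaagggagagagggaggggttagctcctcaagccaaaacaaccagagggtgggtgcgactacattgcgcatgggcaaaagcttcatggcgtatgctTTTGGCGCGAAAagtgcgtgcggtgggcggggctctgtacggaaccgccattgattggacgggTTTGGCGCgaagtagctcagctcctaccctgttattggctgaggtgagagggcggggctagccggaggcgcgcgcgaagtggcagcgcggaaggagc
Mcm5 promoter (chr8:75109259-75109558, plus strand): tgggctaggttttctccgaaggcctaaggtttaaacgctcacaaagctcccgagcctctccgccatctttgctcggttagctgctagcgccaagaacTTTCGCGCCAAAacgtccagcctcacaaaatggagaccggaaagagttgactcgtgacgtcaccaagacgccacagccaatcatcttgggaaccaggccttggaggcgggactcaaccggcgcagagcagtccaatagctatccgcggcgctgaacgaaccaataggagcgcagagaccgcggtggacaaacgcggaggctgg
Mcm3 promoter (chr1:20820263-20820562, minus strand): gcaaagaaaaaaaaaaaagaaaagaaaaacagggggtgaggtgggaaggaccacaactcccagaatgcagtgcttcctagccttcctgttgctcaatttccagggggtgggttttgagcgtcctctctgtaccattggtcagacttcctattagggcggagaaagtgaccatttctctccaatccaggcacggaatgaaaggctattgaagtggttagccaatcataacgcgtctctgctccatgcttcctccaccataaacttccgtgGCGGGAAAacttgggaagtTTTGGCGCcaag
Orc1 promoter (chr4:108579204-108579503, plus strand): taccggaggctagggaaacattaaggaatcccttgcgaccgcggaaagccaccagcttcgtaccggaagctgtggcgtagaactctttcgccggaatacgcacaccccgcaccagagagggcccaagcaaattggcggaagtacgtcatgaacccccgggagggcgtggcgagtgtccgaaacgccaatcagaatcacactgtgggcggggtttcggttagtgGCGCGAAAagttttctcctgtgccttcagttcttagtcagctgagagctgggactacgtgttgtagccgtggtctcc
Gins3 promoter (chr8:95633309-95633608, plus strand): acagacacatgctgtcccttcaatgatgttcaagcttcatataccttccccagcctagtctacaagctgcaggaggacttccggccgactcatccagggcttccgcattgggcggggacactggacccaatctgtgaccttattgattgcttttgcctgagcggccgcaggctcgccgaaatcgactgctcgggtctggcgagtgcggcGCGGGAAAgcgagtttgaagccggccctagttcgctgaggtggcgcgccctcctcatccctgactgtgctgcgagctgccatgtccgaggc
The promoter of Mcm6 holds 3 of these words and those of Mcm5 and Mcm3 hold 2 each, all before the start in Mcm6 and Mcm5 and all after it in Mcm3. The promoters of Orc1 and Gins3, which were not called higher, hold 1 each. Lig1, Pola1, Pold1, Pole2 and Uhrf1, which were called higher, hold 1 word each as well, and Mcm2, also called higher, holds none.

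Promoter entries matched 39 of the 47 genes, in 48 windows. An E2F word was found for 16 of the 39 genes (41.0%), against 704 of 27025 genes whose promoters were searched (2.61%). Promoters of a single chromosome, which were left out of the search, are not among these. Among those with a word were Mcm3, Mcm5, Mcm6, Mcm7, Lig1, Uhrf1, Dnmt1, Pola1, Pold1, Pole2 and Rfc3, all called higher. The genes called higher and the others both held it. It was found for 11 of 29 genes called higher (37.9%) and for 5 of 10 that were not, which were Cdc6, Cdt1, E2f2, Gins3 and Orc1. The windows of Mcm2, Tk1, Pcna, Rrm1, Rrm2, Tyms and Fen1 held none of the 4 words. The CCAAT word, on either strand, was found for 26 of the 39 genes (66.7%), against 41.1% of all genes searched. The word TTTGAA, the core of the element that marks many late cell-cycle promoters, was found for 8 of the 39 (20.5%), against 20.2% of all genes searched. Promoters of 30 mitosis genes differed in these words, with an E2F word in 1 (3.33%) and TTTGAA in 22 (73.3%). A match describes the letters of the window and does not show that a factor binds there.

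Among the 5 licensing genes, 2 rose, 1 fell and 2 did not pass the test. The counts by role given here and below stand against 16.5% of all tested genes called higher and 14.1% called lower. Each role holds few genes. Gmnn encodes geminin, the inhibitor of Cdt1. Its level was 17.7, 16.8 and 18.9 CPM in the CON libraries and 23.5, 24.5 and 22.5 CPM in the sTREM-1 libraries. These groups do not overlap, and the log2 fold change was 0.40 ± 0.07 (SE, n = 3 per group), or 1.32-fold, with an edgeR adjusted p of 2.93e-05. Cdt1, the loading factor that geminin blocks, stood at 145 ± 5.51 CPM (SD, n = 3) in the CON and 152 ± 1.54 CPM in the sTREM-1 group. Its sTREM-1 libraries all lay above its CON libraries, but the log2 difference of 0.074 ± 0.0305 (SE) did not pass the test (edgeR adjusted p = 0.0666). Without CON replicate 1 it passed (edgeR adjusted p = 0.0298, with 0.0298 to 0.368 over all alternatives). Cdc6, the ATPase that recruits MCM with Cdt1, was at 38.6, 40.4 and 41.2 CPM in the CON and 41.8, 39.5 and 42.9 CPM in the sTREM-1 libraries. Its groups overlap, and the log2 difference was 0.046 ± 0.0477 (SE, edgeR adjusted p = 0.520).

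The pair of origin recognition genes in the group moved in opposite directions. Orc1, the largest subunit, was at 11.7, 13.99 and 11.7 CPM in the CON libraries and 9.87, 11.1 and 10.7 CPM in the sTREM-1 libraries. All sTREM-1 libraries lay below all CON libraries, and Orc1 fell by 0.24 on the log2 scale (SE 0.09, n = 3 per group, edgeR adjusted p = 0.0470). The call was lost without CON replicate 2, the highest library, where the log2 difference was -0.15 (edgeR adjusted p = 0.291). It was also lost without sTREM-1 replicate 1 (adjusted p = 0.177) and without sTREM-1 replicate 3 (0.0655), and the edgeR and DESeq2 adjusted p ranged from 0.0270 to 0.291 over the alternatives. Orc6, the smallest subunit, rose from 58.5 ± 1.33 to 62.9 ± 0.477 CPM (1.07-fold, edgeR adjusted p = 0.0429). Leaving out any library but CON replicate 2 ended that call, with an edgeR adjusted p of 0.114 without CON replicate 1, 0.145 without CON replicate 3, and 0.0907, 0.0768 and 0.110 without sTREM-1 replicates 1, 2 and 3. Over all alternatives the adjusted p for Orc6 lay between 0.00556 and 0.145.

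All 6 subunits of the MCM helicase rose, with a median log2 fold change of 0.30. Mcm5, Mcm6 and Mcm7 rose by 1.35-fold to 1.36-fold, and Mcm2, Mcm3 and Mcm4 by 1.10-fold to 1.12-fold, a grouping made after the values were seen. Mcm6 had the smallest p of all 47 genes. It was at 133, 130 and 138 CPM in the CON libraries and 180, 184 and 181 CPM in the sTREM-1 libraries. The groups lie far apart, with a log2 fold change of 0.45 ± 0.03 (SE, n = 3 per group) and an edgeR adjusted p of 4.03e-13. Mcm7 was at 89.3, 89.6 and 94.6 CPM in the CON and 126, 120 and 127 CPM in the sTREM-1 libraries, which do not overlap (1.36-fold, edgeR adjusted p = 8.64e-12). Mcm5 rose from 100.2 ± 0.707 to 136 ± 6.46 CPM (1.35-fold, edgeR adjusted p = 1.42e-11).

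The other three MCM subunits moved less. Mcm4 was at 107, 104 and 101 CPM in the CON libraries and 116, 111 and 115 CPM in the sTREM-1 libraries. Its groups do not overlap, and the log2 fold change was 0.14 ± 0.03 (SE, edgeR adjusted p = 0.00157). Mcm2 rose from 138 ± 5.49 to 154 ± 7.10 CPM (edgeR adjusted p = 0.000517) and Mcm3 from 191 ± 0.88 to 213 ± 0.893 CPM (edgeR adjusted p = 1.42e-05). Per kilobase of transcript, Mcm3 and Mcm2 had the highest levels of the 6 in CON cells, at 55.6 ± 0.256 and 39.4 ± 1.57 CPM per kb, and Mcm4, Mcm5, Mcm6 and Mcm7 lay between 29.0 and 30.8 CPM per kb. In the sTREM-1 group Mcm5, Mcm6 and Mcm7 stood at 40.1 ± 1.91, 41.8 ± 0.388 and 42.0 ± 1.26 CPM per kb, Mcm2 stood at 43.9 ± 2.03, Mcm3 at 62.2 ± 0.260 and Mcm4 at 31.9 ± 0.732. The levels of Mcm5, Mcm6, Mcm7 and Mcm2 in treated cells lay within the sum of their SDs of each other, with Mcm3 above and Mcm4 below them. Lengths are those of the annotated transcript with the longest coding sequence, which may differ from those of the transcripts in the cells, and Mcm7 shares genomic sequence with neighbouring genes.

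**Figure D2:**
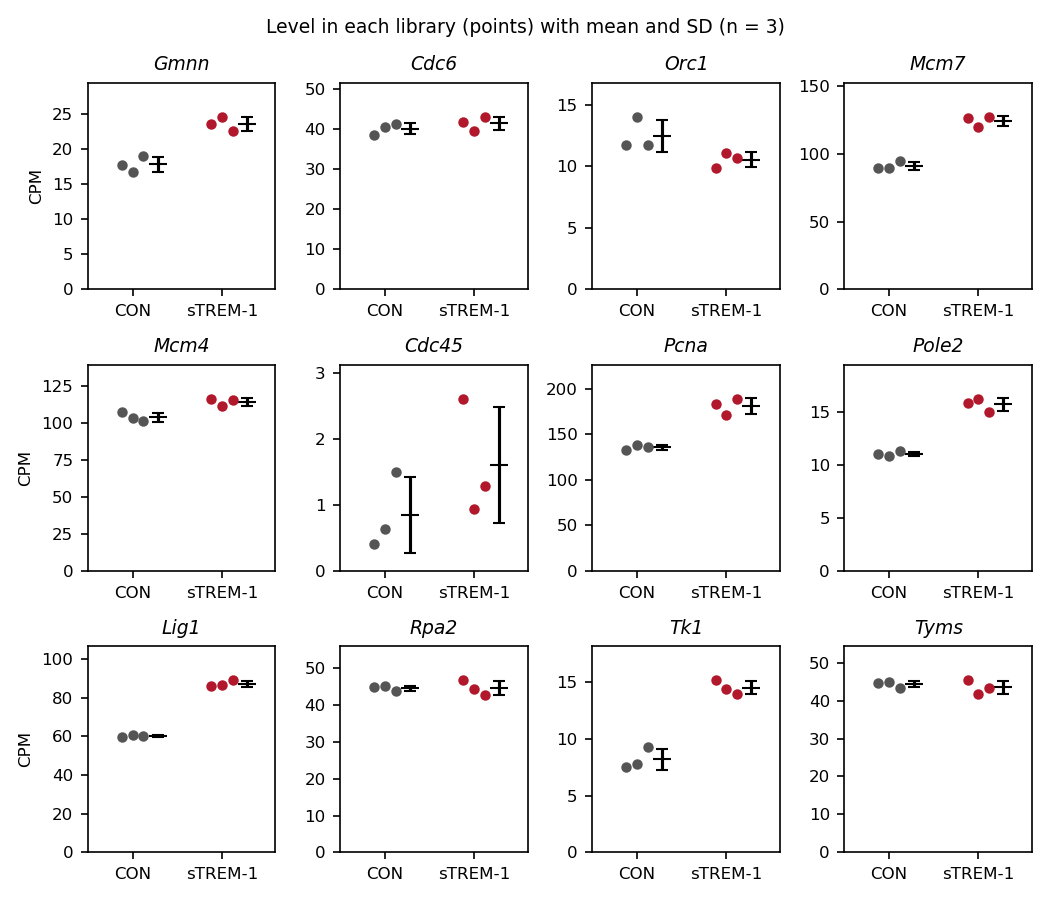
Levels in CPM of 12 replication genes in each of the 3 CON and 3 sTREM-1 libraries (points), with the group mean and its SD (bars). Gmnn, Mcm7, Pcna, Pole2, Lig1 and Tk1 are higher in every sTREM-1 than in every CON library, Orc1 is lower in the sTREM-1 libraries, and Cdc45 varies 3.60-fold within the CON group.

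Of the 6 genes that activate the helicase, 3 rose and 3 did not pass the test. The GINS complex is a ring of 4 subunits that binds MCM together with Cdc45, and its genes moved apart. Gins2 rose from 19.4 ± 0.449 to 28.7 ± 1.96 CPM (1.48-fold, edgeR adjusted p = 2.90e-08), and Gins4 rose from 25.5 ± 1.16 to 32.7 ± 1.94 CPM (1.28-fold, edgeR adjusted p = 1.27e-05). Gins1 went from 23.5 ± 0.887 to 26.0 ± 1.501 CPM, with overlapping groups (log2 difference 0.15 ± 0.06, edgeR adjusted p = 0.0712), and passed the test without sTREM-1 replicate 1 (edgeR adjusted p = 0.0400, with 0.0159 to 0.288 over all alternatives). Gins3 was at 46.8, 45.0 and 44.7 CPM in the CON libraries and 42.6, 40.02 and 45.9 CPM in the sTREM-1 libraries. Replicate 3 of the sTREM-1 group lay within the CON range, and the log2 difference was -0.089 ± 0.0488 (SE, edgeR adjusted p = 0.184). Without that library Gins3 was called lower, at -0.14 (edgeR adjusted p = 0.0421, with 0.0421 to 0.588 over all alternatives). Mcm10, which helps the assembled helicase to start, rose from 35.9 ± 2.98 to 42.0 ± 1.37 CPM (1.17-fold, edgeR adjusted p = 0.00122).

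Cdc45 had far fewer counts than its partners and is uncertain. Its counts were 17, 26 and 61 in CON replicates 1, 2 and 3, and 119, 40 and 51 in sTREM-1 replicates 1, 2 and 3. The groups overlap, and the CON libraries alone span 3.60-fold in CPM. The log2 difference of 0.93 ± 0.38 (SE) is the largest of the group, but it did not pass the test (edgeR adjusted p = 0.0619). Without CON replicate 3 it was 1.62 (edgeR adjusted p = 0.00456), without sTREM-1 replicate 2 it was 1.2 (0.0201), and over all alternatives it lay between 0.39 and 1.62 with an adjusted p of 0.00456 to 0.567. Cdc45 overlaps Ufd1, which lies on the opposite strand and is listed as Ufd1l, with counts of 34, 40 and 22 in the CON and 302, 113 and 109 in the sTREM-1 libraries. Whether reads were counted by strand is not given in the sources used here. If they were not, reads of a stretch that both genes share cannot be told apart. The overlap is one of whole gene spans, and shared exons were not examined. The part of Ufd1 reads in the values of Cdc45 was not tested.

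The clamp and the complex that loads it rose together, in 6 of 6 genes. Pcna, the sliding clamp that tethers the polymerases, was at 133, 138 and 136 CPM in the CON libraries and 183, 171 and 189 CPM in the sTREM-1 libraries. The groups lie apart, with a log2 fold change of 0.41 ± 0.03 (SE, n = 3 per group), or 1.33-fold, and an edgeR adjusted p of 1.46e-11. Per kilobase, Pcna had the highest level of all 47 genes, with 89.4 ± 1.73 CPM per kb in the CON and 119 ± 5.77 in the sTREM-1 group. Rfc1, the large subunit of the clamp loader, changed least, from 114, 111 and 118 CPM in the CON to 133, 130 and 128 CPM in the sTREM-1 libraries, again without overlap (1.14-fold, edgeR adjusted p = 2.26e-05). The 4 small subunits of the loader rose by 1.30-fold (Rfc2), 1.25-fold (Rfc3), 1.18-fold (Rfc4) and 1.27-fold (Rfc5), with edgeR adjusted p between 1.31e-06 and 0.00185.

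All 8 genes of the DNA polymerases and primase rose, with a median log2 fold change of 0.30. Pole2, the second subunit of the leading-strand polymerase epsilon, rose most. It was at 11.1, 10.9 and 11.3 CPM in the CON libraries and 15.9, 16.3 and 15.1 CPM in the sTREM-1 libraries. The groups lie apart, with a log2 fold change of 0.51 ± 0.08 (SE, n = 3 per group), or 1.42-fold, and an edgeR adjusted p of 1.13e-05. Pole, its catalytic subunit, changed least, from 66.6, 60.1 and 64.8 CPM in the CON to 74.7, 70.8 and 72.8 CPM in the sTREM-1 libraries (1.14-fold, edgeR adjusted p = 0.000548). Both genes have groups that do not overlap. For the lagging-strand polymerase delta, Pold1, the catalytic subunit, rose from 37.6 ± 1.25 to 53.0 ± 1.91 CPM (1.41-fold, edgeR adjusted p = 5.43e-10), and Pold2, an accessory subunit, from 43.2 ± 1.54 to 56.3 ± 1.80 CPM (1.30-fold, edgeR adjusted p = 5.07e-08). Polymerase alpha and primase, which make the primers, rose by less, by 1.16-fold for Pola1, 1.17-fold for Pola2, 1.2-fold for Prim1 and 1.26-fold for Prim2, with edgeR adjusted p between 8.73e-06 and 0.00047.

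The genes that join Okazaki fragments and coat single-stranded DNA divided evenly, with 2 of 4 called higher. Lig1 encodes DNA ligase I, which seals the fragments. It was at 59.7, 60.4 and 60.4 CPM in the CON libraries and 86.0, 86.3 and 88.8 CPM in the sTREM-1 libraries. The 2 groups are far apart, with a log2 fold change of 0.53 ± 0.04 (SE, n = 3 per group), or 1.45-fold, and an edgeR adjusted p of 9.59e-13. Fen1, the flap nuclease that trims the same fragments before ligation, was at 33.9, 34.0 and 34.3 CPM in the CON and 32.2, 32.3 and 35.2 CPM in the sTREM-1 libraries. Its groups overlap, and the log2 difference was -0.036 ± 0.0510 (SE, edgeR adjusted p = 0.655).

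Rpa1 and Rpa2 encode partners in replication protein A, which coats single-stranded DNA. Rpa1 rose from 102 ± 3.03 to 131 ± 1.28 CPM (1.28-fold, edgeR adjusted p = 2.55e-10). Rpa2 was at 44.8, 45.2 and 43.8 CPM in the CON libraries and 46.7, 44.4 and 42.8 CPM in the sTREM-1 libraries. Its group means were the same to 3 digits, at 44.6 CPM, and its log2 difference of 0.0010 ± 0.0455 (SE) changed sign between alternatives (edgeR adjusted p = 0.991).

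Of the 4 genes of nucleotide supply, 3 rose. Tk1, the cytosolic thymidine kinase that salvages thymidine, had the largest change of any gene that passed the test. It was at 7.52, 7.78 and 9.26 CPM in the CON libraries and 15.1, 14.4 and 13.96 CPM in the sTREM-1 libraries. Every sTREM-1 library lay well above every CON library, with a log2 fold change of 0.82 ± 0.09 (SE, n = 3 per group), or 1.77-fold, and an edgeR adjusted p of 3.55e-08. Rrm1, the large subunit of ribonucleotide reductase, which makes deoxynucleotides, was at 126, 126 and 128 CPM in the CON and 167, 169 and 168 CPM in the sTREM-1 libraries. These values are tight within each group and apart between them (1.33-fold, edgeR adjusted p = 1.60e-12). Rrm2, the small subunit, rose alike, from 63.6 ± 0.447 to 83.8 ± 1.39 CPM (1.32-fold, edgeR adjusted p = 4.35e-10). Tyms, thymidylate synthase, which makes thymidylate anew, was at 44.6, 44.8 and 43.3 CPM in the CON and 45.3, 41.9 and 43.4 CPM in the sTREM-1 libraries. Its groups overlap, and the log2 difference of -0.023 ± 0.0455 (SE) did not pass the test (edgeR adjusted p = 0.763).

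Among the 5 genes that copy chromatin marks or supply histones, 4 rose. Uhrf1, which recognizes hemimethylated DNA behind the fork, was at 86.7, 85.3 and 89.2 CPM in the CON libraries and 119, 117 and 127 CPM in the sTREM-1 libraries. The groups lie apart, with a log2 fold change of 0.47 ± 0.03 (SE, n = 3 per group), or 1.39-fold, and an edgeR adjusted p of 5.57e-12. Dnmt1, the maintenance DNA methyltransferase that Uhrf1 recruits, rose from 122 ± 3.21 to 153 ± 4.78 CPM (1.25-fold, edgeR adjusted p = 1.27e-09). Chaf1a and Chaf1b, subunits of the chromatin assembly factor that places histones on new DNA, rose by 1.22-fold and 1.24-fold (edgeR adjusted p = 4.21e-05 and 0.000113). Slbp, the protein that binds the stem-loop of replication-dependent histone mRNA, was at 46.7, 45.2 and 46.6 CPM in the CON and 49.0, 49.3 and 45.6 CPM in the sTREM-1 libraries. Its groups overlap, with a log2 difference of 0.056 ± 0.0446 (SE, edgeR adjusted p = 0.387).

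Of the 3 E2F factors, 2 rose. E2f1, an activator of the S-phase programme, rose from 60.9 ± 0.960 to 67.5 ± 2.79 CPM (1.11-fold, edgeR adjusted p = 0.00480). E2f8, an atypical repressor that is itself an E2F target, was at 16.5, 15.7 and 17.4 CPM in the CON libraries and 22.9, 20.3 and 20.7 CPM in the sTREM-1 libraries. The groups lie apart (1.29-fold, edgeR adjusted p = 0.000197). E2f2, another activator, was at 48.7, 46.9 and 50.2 CPM in the CON and 51.4, 47.9 and 51.6 CPM in the sTREM-1 libraries, with overlapping groups and a log2 difference of 0.049 ± 0.0445 (SE, edgeR adjusted p = 0.454).

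**Figure D3:**
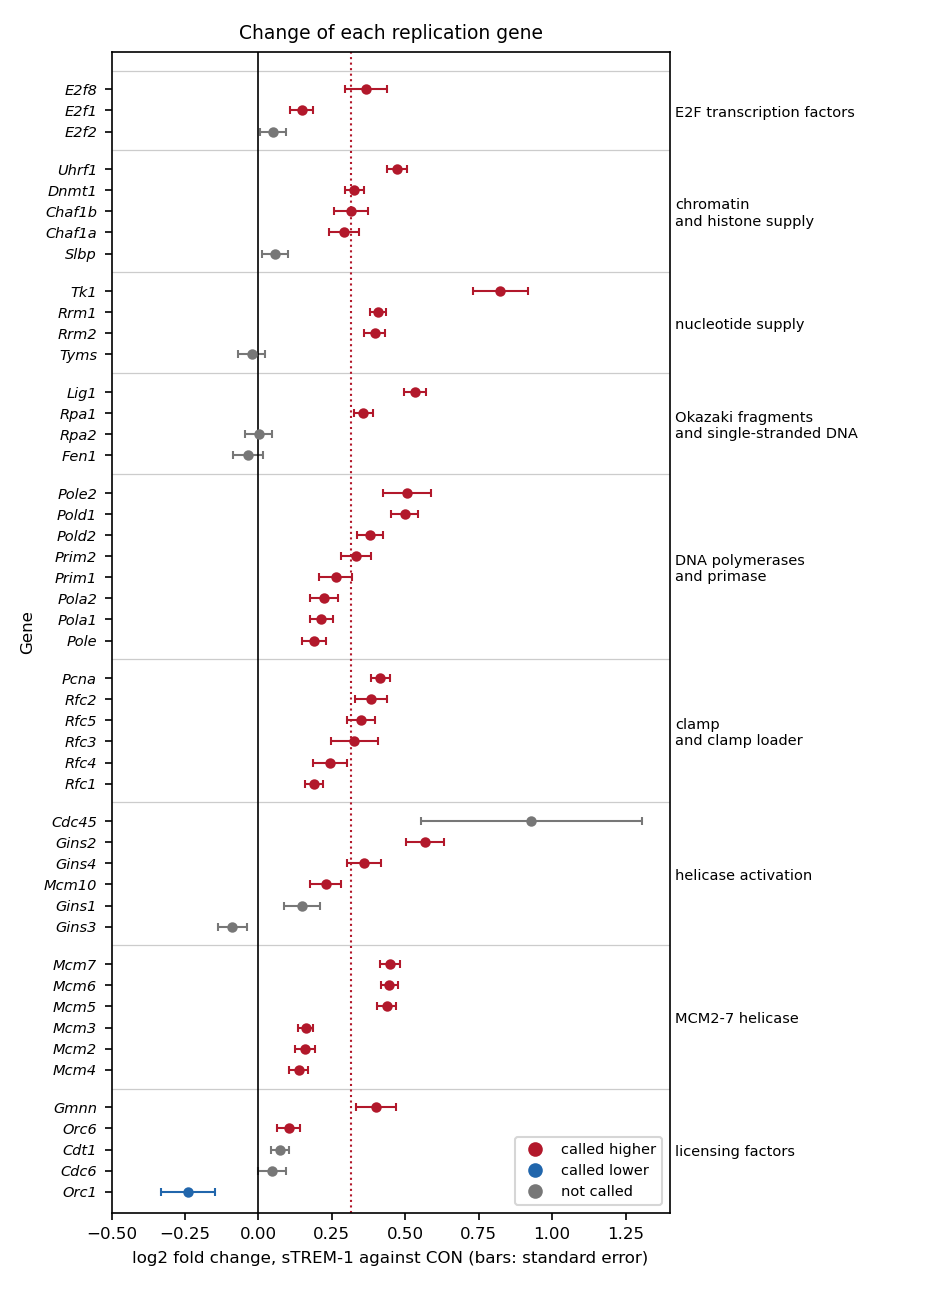
Log2 fold change of each of the 47 genes between the sTREM-1 and CON groups (points) with its SE (bars), grouped by role and coloured by whether the gene was called higher, called lower or not called, with the median of 0.32 as a dotted line. Tk1 has the largest called change at 0.82, Orc1 is the only gene called lower at -0.24, and the wide bar belongs to Cdc45.

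Among genes whose products act together, most of the ratios taken shifted and a few did not. The pairs were chosen after the values were seen, and their ratios of CPM within a library are a description without a test. Lig1 to Fen1 was 1.76, 1.78 and 1.76 in the CON libraries and 2.67, 2.67 and 2.52 in the sTREM-1 libraries. Gins2 to Gins3 went from 0.416, 0.420 and 0.442 to 0.671, 0.671 and 0.670, and Tk1 to Tyms from 0.169, 0.174 and 0.214 to 0.334, 0.343 and 0.322. In each of these the groups lie apart, by 1.485-fold, 1.575-fold and 1.80-fold between the means. Each sets a gene called higher over one that did not pass the test, so a shift was built into the choice. Smaller shifts without overlap were seen, among others, for Rpa1 to Rpa2 (1.28-fold), Gmnn to Cdt1 (1.25-fold) and Mcm6 to Mcm2 (1.22-fold). Mcm6 to Mcm2 was 0.980, 0.905 and 1.03 in the CON and 1.14, 1.26 and 1.15 in the sTREM-1 libraries. By contrast the ratio of Rrm1 to Rrm2 overlapped between the groups, at 1.97 to 2.01 in the CON and 1.99 to 2.04 in the sTREM-1 libraries, and that of Chaf1a to Chaf1b overlapped too (0.989-fold).

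**Figure D4:**
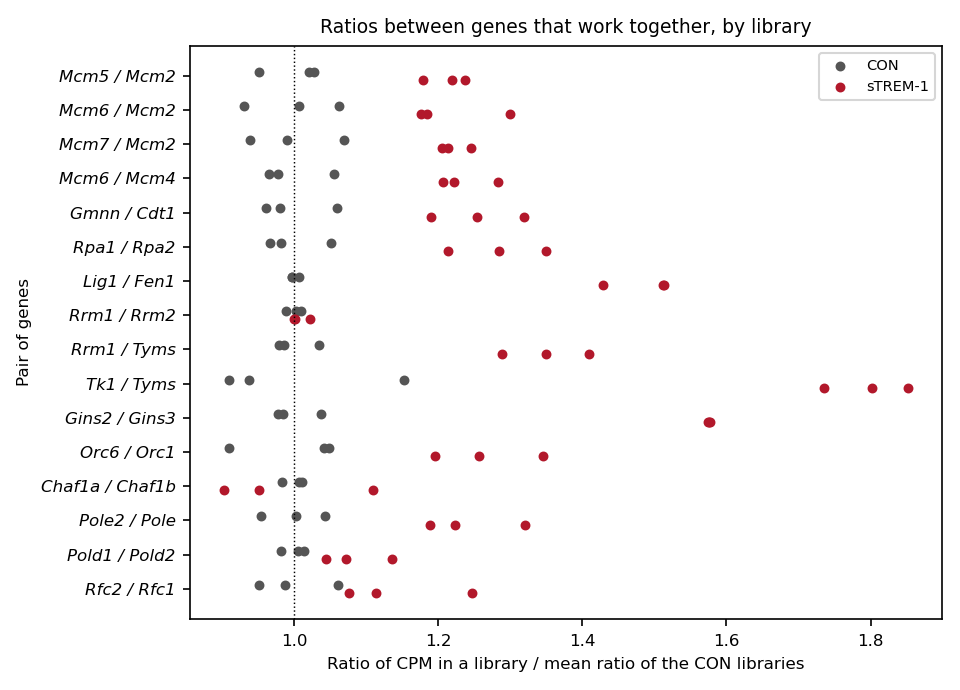
Ratio of the levels of paired replication genes within each library, divided by the mean ratio of the CON group, with 1 point per library for the 3 CON and 3 sTREM-1 libraries. The ratios of Lig1 to Fen1, Gins2 to Gins3 and Tk1 to Tyms lie above those of the CON libraries, and Rrm1 to Rrm2 stays near 1.

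Other genes of the same process were taken from lists compiled by hand, whose counts were not tested against those of the 47 genes. Of 39 other replication genes tested, 20 rose (51.3%, against 16.5% of all tested genes) and 3 fell (7.69%, against 14.1%). The other 16 did not pass the test, and the median log2 fold change of the 39 was 0.09. Those called higher with the smallest p included Clspn, the claspin adaptor of the fork (0.47, edgeR adjusted p = 1.31e-10), and Ssrp1, a subunit of the histone chaperone FACT (0.26, edgeR adjusted p = 1.11e-08). The 3 that fell were Mcm9, an MCM relative in DNA repair (-0.38), the origin recognition gene Orc4 (-0.16) and Rif1, a regulator of origin timing (-0.08). Of 21 other nucleotide genes, 8 rose (38.1%, against 16.5% of all tested genes) and 1 fell (4.76%, against 14.1%). Among them Mthfd1, an enzyme of folate metabolism, changed by 0.49 and Dck, the deoxycytidine kinase, by 0.47 on the log2 scale. Samhd1, which degrades deoxynucleotides, rose as well (0.43), and Shmt2, a mitochondrial folate enzyme, was the gene that fell (-0.12).

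Of 29 regulators of the entry into S phase, 11 were called higher (37.9%, against 16.5% of all tested genes) and 5 lower (17.2%, near the 14.1% of all tested genes). Their median log2 fold change was 0.08. Ccna2, the cyclin of S phase and G2, rose by 0.44 (edgeR adjusted p = 7.46e-12). Ccnd1, a cyclin of G1, fell from 126, 128 and 126 CPM in the CON libraries to 101, 97.5 and 93.9 CPM in the sTREM-1 libraries, without overlap (-0.38, edgeR adjusted p = 1.14e-10). Ccnd2 (-0.24), Cdc25a (-0.20) and Cdk6 (-0.10) were called lower as well. The G1 cyclins did not move as a class, since Ccnd3 rose by 0.28 without overlap (edgeR adjusted p = 5.75e-06). Rbl2 (0.31) and Tfdp2 (0.33) were called higher too. Of 16 replication checkpoint genes 7 rose (43.8%, against 16.5% of all tested genes) and 1 fell (6.25%, against 14.1%). The gene that fell was the kinase gene Atr (-0.13). The mitosis genes, which act after replication, rose in 27 of 34 cases (79.4%, against 16.5% of all tested genes). The other 7 did not pass the test. The median log2 fold change of the 34 mitosis genes was 0.30. The proliferation marker Mki67 was among them (0.48, edgeR adjusted p = 4.21e-15).

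Of 71 histone genes, 32 could be tested, of which 1 rose (3.12%, against 16.5% of all tested genes), 7 fell (21.9%, against 14.1%) and 24 did not pass the test. Their median log2 fold change was -0.18. The 24 genes that did not pass had CON means of only 0.212 to 3.67 CPM, against 7.08 to 309 CPM for those called. The median thus rests mostly on genes with few counts. Hist1h1c, a linker histone, fell by 0.46 on the log2 scale (edgeR adjusted p = 4.84e-14) and Hist1h1d by 0.55 (edgeR adjusted p = 2.32e-06). The list was drawn by symbol and also holds H1f0, a linker histone made outside S phase (-0.38). Transcripts of replication-dependent histone genes mostly lack a poly(A) tail, and whether poly(A) RNA was selected is not given in the sources used here. How that bears on these counts was not tested.

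**Figure D5:**
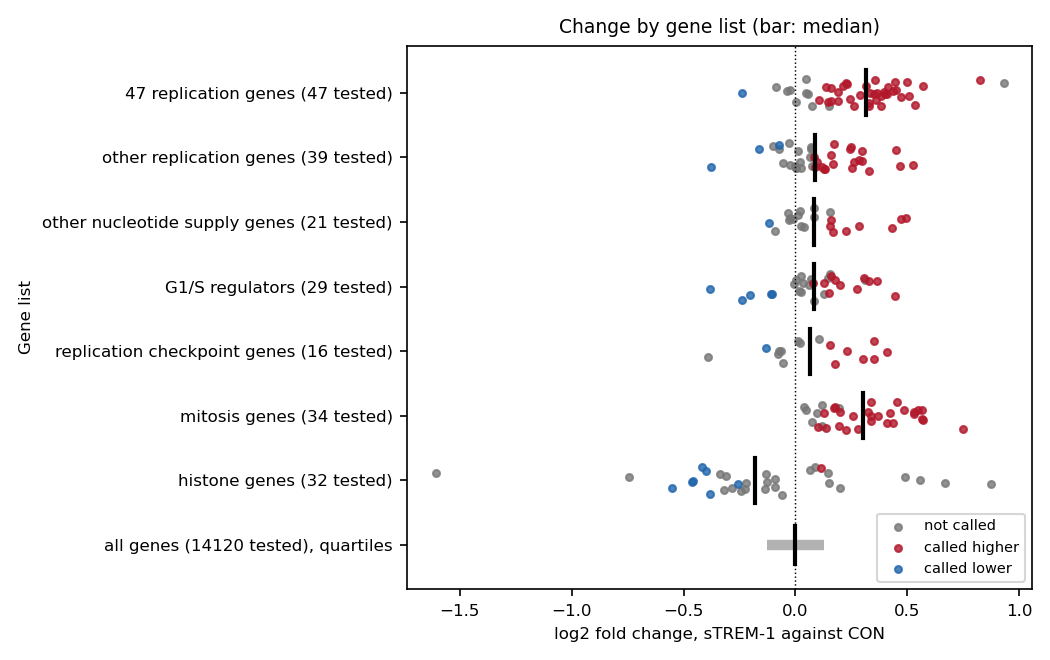
Distribution of log2 fold changes between the sTREM-1 and CON groups in the 47 replication genes, in related lists and in all 14120 tested genes (points are genes, black bars are medians, and the grey bar of all genes spans their quartiles). The 47 genes have a median of 0.32, the mitosis genes 0.30, the other replication genes 0.09, and the histone genes, most with few counts, -0.18.

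Of the 47 genes, 25 overlap another annotated gene on either strand and 13 overlap a protein-coding one, taking whole gene spans with their introns. Among the 25 are Tk1 (Afmid and Gm20708), Gins2 (Gse1 and Gm20388) and Lig1 (Zswim9), with these neighbours on the opposite strand. Without strand, reads from a stretch shared with a neighbour on the opposite strand cannot be told apart. Whether exons are shared was not examined, and the part of neighbours in these values was tested for none of the 25.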

How the data were processed

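RNA of BV2 cells was sequenced in 3 CON and 3 sTREM-1 libraries, grouped by the labels. The deposited values are raw counts, whole numbers that the authors gave per gene symbol and did not normalize. Their methods name FastQC, RSEM and edgeR. HISAT2 2.0.4 and the human builds hg19 and GRCh38 come from the submitters' processing notes, although the symbols are those of mouse genes. Their role, the annotation and the use of strand are not given in the sources used here. No per-sample column was left unused (0). A cell type marker and the sum of its list are not reported here.

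The 47 genes and all lists were chosen with earlier results of these data known, so no list was tested. In R 4.3.3, edgeR 4.0.16 was used to remove low genes (filterByExpr, minimum count 10), to apply TMM scaling and to run its quasi-likelihood test without covariates, at a Benjamini-Hochberg adjusted p threshold of 0.05 over 14120 genes. Each SE is the log2 fold change divided by the root of its F statistic. Totals were 40070633 to 45877107 counts. An exact permutation test of 3 against 3 libraries could not give a p under 0.1 and was not used.

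Values in every library are given for the gene of largest and of smallest change in each of 9 roles, the gene called lower, the 5 genes of smallest p and any gene that varied at least 3-fold within a group. Of other lists, at most 4 called genes per direction of smallest p were open to naming. Lengths, positions and overlaps come from GENCODE M21 (GRCm38), and promoters from RefSeq (GRCm38.p6).

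The replicate numbers of the labels did not pair the libraries. Over 14120 genes, the correlations between libraries of the same number, each taken as its deviation from the group mean, were -0.0178, -0.0335 and -0.0137. Alternatives were RLE size factors, 2 other filters on low counts, DESeq2 1.42.0, the exact test of edgeR, a block for replicate number, a correction for GC content and length (loess span 0.3), the 2 together, thinning to the smallest total, leaving out each library, and other calling thresholds.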

Additional observations from a re-analysis of the deposited data

How the results depend on the processing

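Of 705 values of single genes under an alternative, 670 kept their direction and their side of the threshold, 14 (2 genes, Orc1 and Orc6) lost the call, 12 (4 genes, Cdt1, Cdc45, Gins1 and Gins3) gained one, and 9 (2 genes) changed sign. The number called higher was 36, and 35 to 36 with any library left out, but 1 at a threshold of 1.5-fold. The number called lower was 1, and 0 with no filter, with DESeq2, with edgeR's exact test, after thinning, and at 1.2-fold or 1.5-fold, and 0 to 1 with a library left out. It was 1 at an unadjusted p under 0.05, and Orc1 kept its sign throughout. The median log2 fold change of 0.32 was 0.3024 with the GC and length correction, 0.3021 with that correction and the replicate block, and 0.279 to 0.3234 with a library left out. All genes called numbered 4312, and 3608 to 3863 with a library left out, 1517 at 1.2-fold and 301 at 1.5-fold. The cause of these shifts was not tested, beyond the fewer libraries or the stricter threshold.

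The sign of Rpa2, at 0.0010, was reversed with RLE size factors (-0.0021), at least 10 counts in every library (-0.0022), DESeq2 (-0.0022), the GC and length correction (-0.0033), that correction with the replicate block (-0.0045), and without CON replicate 3 (-0.013) or sTREM-1 replicate 1 (-0.03425). With a library left out, Rpa2 ranged up to 0.02834 and Tyms from -0.05393 to 0.003215, the last without sTREM-1 replicate 2. With the replicate block, Rpa2 was at -3.486e-05, 38 of the 47 genes were called higher and 1 lower, and the 36 genes called without it all remained. The labels number the libraries, but the numbers share nothing more that is stated. The block added Cdt1 (edgeR adjusted p = 0.0379) and Cdc45 (0.0334). The median of all genes stayed between -0.0132 and 0.000901 on the log2 scale in every alternative. GC content was known for 90.7% of tested genes and for all 47. Depth limits Cdc45 most, with 17 counts in its lowest library, while the next lowest of the 47 genes, Tk1, had 308.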
